A study of Homo sapiens with 6 samples.

Results

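The proximal tubule is the segment of the nephron that recovers most of the filtered glucose, amino acids, phosphate, bicarbonate and protein. Its cells take up filtered protein through the receptors megalin and cubilin, carry solutes across the apical and basolateral membranes with solute carriers, and hold peptidases and phosphatases on a brush border of microvilli. This identity is kept by nuclear factors such as HNF4A, while PAX2, PAX8, LHX1 and WT1 are known from kidney development. Cultured tubular lines are known to lose much of this program. A set of 45 proximal tubule identity and transport genes was followed here, chosen by gene symbol among the 57905 genes of the deposited table and covering apical endocytosis, transporters, brush border enzymes, nephron transcription factors, cadherins, keratins and tubular metabolism. Each symbol had a row. AQP1 had 2 rows, the second without any count, and the row with counts was used.

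The libraries came from HK-2, an immortalized human proximal tubular cell line, grown in serum-containing medium. All 6 libraries came from lipid-transfected cells of this single line, and no genetic change beyond its immortalization is named in the sources used here. Of these, 3 had a non-targeting siRNA pool (control siRNA) and 3 an siRNA pool against INO80 (INO80 siRNA), all harvested after 48 h. INO80 is the catalytic subunit of a chromatin remodeling complex. The question was which of the 45 genes were present in these cells and which changed when INO80 was knocked down. Total counts per library ran from 16829273 to 20311588 under control siRNA and from 20678008 to 23784599 under INO80 siRNA. INO80 itself was at 49.9 ± 3.89 CPM (SD, n = 3) under control siRNA and 13.3 ± 1.12 CPM (SD, n = 3) under INO80 siRNA, so the libraries matched their labels (log2 fold change -1.90, adjusted p = 0.000161, edgeR). CPM, the count scaled to a common library size with TMM factors, serves to compare a gene between libraries. FPKM, the deposited level per length of exon and library size, serves to compare genes with each other. Nothing in the labels says whether the replicates were separate cultures, so the p-values measure only the spread between these libraries.

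Same-numbered libraries of both groups varied jointly, and replicate 1 stood apart from the others. Each comparison was therefore made with the treatment alone and again with the replicate number as a block. A gene was taken as changed at an adjusted p under 0.05, in edgeR's quasi-likelihood test over all 15343 genes that passed the count filter.

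Of the 45 members, 16 (35.6%) had a mean of at least 1 FPKM over the 6 libraries, and all 16 passed the count filter. A further 10 members passed it with a mean under 1 FPKM. Another 12 had counts in some library but stayed under the filter, and 7 had no count in any library. The keratins were the only role among those listed in which every member reached 1 FPKM, with 4 of 4. No organic ion transporter passed the filter. Because the libraries are from bulk cells, fewer cells that express a gene and less RNA per cell cannot be told apart.

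**Figure D1:**
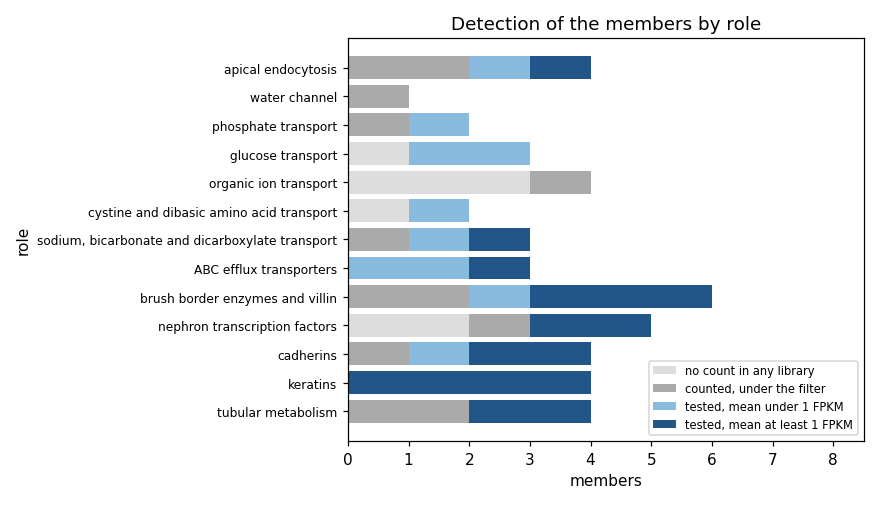
Number of members (horizontal axis) in each role (vertical axis), split into members with no count in any library, members counted but under the filter, tested members with a mean under 1 FPKM and tested members with a mean of at least 1 FPKM. The 4 keratins all lie in the highest class, and 3 of the 4 organic ion transporters had no count.

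The cell type given by the labels was compared with its defining markers. Among the proximal tubule markers, GGT1 had a mean of 39.1 FPKM, SLC5A2 and SLC34A1 had means of 0.362 and 0.0967 FPKM, and SLC22A6, SLC22A8 and HNF4A had no count in any library. LRP2, CUBN, AQP1 and ANPEP had between 1 and 19 counts summed over all 6 libraries. The label of a proximal tubular cell therefore rested, in these libraries, on few of its markers. Broader epithelial and kidney markers were present: 5 of 6 simple epithelial markers and 2 of 4 general kidney epithelial markers reached 1 FPKM. Markers of the loop, distal tubule and collecting duct had a summed level of at most 0.03 FPKM in every library, and the podocyte marker NPHS1 had no count. The endothelial markers VWF and CDH5 summed to at most 0.02 FPKM. The leukocyte markers summed to between 0.03 and 0.1 FPKM under control siRNA and between 0.18 and 0.36 FPKM under INO80 siRNA. All of it was CD14, since PTPRC had no count, and the part of CD14-expressing cells in any result was not tested. Of 4 fibroblast markers, LUM (66.7 FPKM) and DCN (2.44 FPKM) reached 1 FPKM, while PDGFRA had 2 counts in all and PDGFRB a mean of 0.1 FPKM. The summed level of the fibroblast markers ran from 46.5 to 111 FPKM under control siRNA and from 43.8 to 95.1 FPKM under INO80 siRNA, and the part of LUM-expressing cells in any result was not tested.

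Apical endocytosis was represented mainly by its adaptor. LRP2, which encodes megalin, had 1 count in INO80 siRNA replicate 2 and 0 counts in the other 5 libraries. CUBN, which encodes cubilin, had 3, 2 and 1 counts under control siRNA (replicates 1, 2 and 3) and 2, 4 and 4 under INO80 siRNA (replicates 1, 2 and 3). Values below are listed in that order of groups and replicates. The receptors were thus at trace level in every library. AMN, which encodes the membrane anchor of cubilin, was at 0.81, 0.97 and 0.72 FPKM under control siRNA and at 1.24, 1.15 and 0.97 FPKM under INO80 siRNA. The groups met at 0.97 FPKM, and each INO80 siRNA library was above the control library of the same number. By edgeR AMN differed by 0.42 (INO80 siRNA minus control siRNA) on the log2 scale, with a standard error (SE) of 0.185 and an adjusted p of 0.315, against an adjusted p of 0.0519 with the replicate block. AMN lies opposite CDC42BPB, which had a mean of 4408 counts against 95.3 for AMN, and the strand setting of the counting is not given in the sources used here, so its level is uncertain. DAB2, the clathrin adaptor of megalin, was at 3.97, 4.02 and 3.25 FPKM under control siRNA and at 4.43, 4.27 and 3.79 FPKM under INO80 siRNA. The groups overlapped, and the edgeR log2 change was 0.14 with an SE of 0.114 and an adjusted p of 0.596.

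Most transporters that define the segment were scarce. SLC5A1 (a glucose cotransporter), SLC22A6 and SLC22A8 (organic anion transporters), SLC47A1 (a cation extruder) and SLC7A9 (the light chain of the cystine transporter) had no count in any library. A count of 0 allows up to 3 counts, which corresponds to between 0.0148 and 0.0741 FPKM for these 5 genes, HNF4A and WT1, depending on their length and the library; this limit covers counting error only. SLC22A2, the organic cation transporter, had 2 counts in all and SLC13A3, a dicarboxylate cotransporter, had 3. AQP1, the water channel of the segment, had 2, 0 and 5 counts under control siRNA and 0, 2 and 0 counts under INO80 siRNA.
The phosphate cotransporter SLC34A1 had 9, 8 and 7 counts under control siRNA and 3, 22 and 6 counts under INO80 siRNA, so its highest and lowest values both fell under INO80 siRNA. Its relative SLC34A3 was at 0.28, 0.36 and 0.70 FPKM under control siRNA and at 0.27, 0.27 and 0.37 FPKM under INO80 siRNA. The glucose transporters SLC5A2, the target of gliflozin drugs, and SLC2A2, its basolateral partner, had means of 0.362 and 0.303 FPKM. SLC3A1, the heavy chain of the cystine transporter, had a mean of 0.177 FPKM while its partner SLC7A9 was not counted. The log2 fold changes of SLC34A3, SLC5A2, SLC2A2 and SLC3A1 were -0.57, 0.20, -0.46 and -0.15, with standard errors between 0.261 and 0.456 and adjusted p between 0.517 and 0.826 (edgeR). Their mean counts per library were between 17.8 and 34.2. SLC5A2 lies opposite C16orf58 and SLC3A1 opposite PREPL, both with more counts than the member, so these levels are uncertain.

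SLC4A4, the basolateral sodium bicarbonate cotransporter, was the most abundant of the listed solute carriers, with a mean of 7.99 FPKM. It was at 41.0, 76.0 and 62.9 CPM under control siRNA and at 51.0, 96.7 and 71.9 CPM under INO80 siRNA. Replicate 1 was the lowest library of each group, the groups overlapped, and within each replicate number the INO80 siRNA library was the higher one. EdgeR gave a log2 difference of 0.29, an SE of 0.258 and an adjusted p of 0.646. The blocked edgeR fit gave 0.28 with an SE of 0.0488 and an adjusted p of 8.82e-05, so SLC4A4 rose by the blocked fit, to 1.22 times the control level. SLC9A3, the apical sodium proton exchanger, was at 0.41, 0.27 and 0.58 FPKM under control siRNA and at 0.49, 0.94 and 0.47 FPKM under INO80 siRNA. It was higher in 2 of 3 replicate numbers, with an adjusted p of 0.502 (edgeR), and it lies opposite CTD-2228K2.7, which had a mean of 256.3 counts against 31.0.
Among the ABC efflux transporters, ABCB1, which encodes P-glycoprotein, had a mean of 10.1 FPKM. Its level was 47.6, 60.3 and 53.0 CPM under control siRNA and 56.8, 63.9 and 56.6 CPM under INO80 siRNA. It was higher in 3 of 3 replicate numbers while the groups overlapped, with a log2 change of 0.14 with an SE of 0.0958 and an adjusted p of 0.529 by edgeR and an adjusted p of 0.0498 with the replicate block. ABCG2 and ABCC2, which also export drugs and conjugates, had means of 0.498 and 0.118 FPKM. ABCG2 was at 0.22, 0.54 and 0.52 FPKM under control siRNA and at 0.34, 0.68 and 0.69 FPKM under INO80 siRNA, with replicate 1 lowest in both groups. Neither passed the test with or without the block, with adjusted p of 0.652 and 0.506 for ABCG2 and ABCC2 without it (edgeR).

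**Figure D2:**
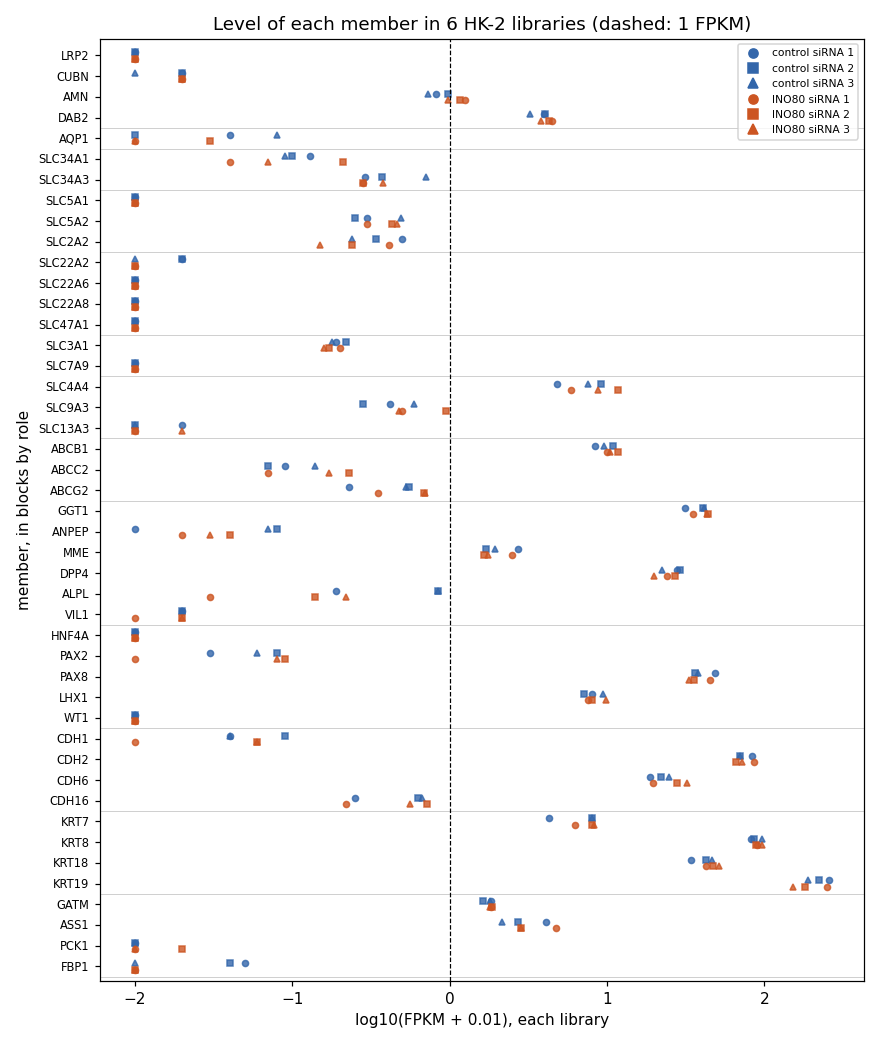
Level of each of the 45 members as log10(FPKM + 0.01) on the horizontal axis, 1 point per library, with members in blocks by role on the vertical axis. Blue symbols are control siRNA and orange symbols INO80 siRNA, the shapes give the replicate number, and the dashed line marks 1 FPKM; KRT19 (mean 208 FPKM) lies farthest to the right and genes without counts lie at -2.

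The brush border held the member with the largest fold change. ALPL encodes the tissue-nonspecific alkaline phosphatase of liver, bone and kidney. It had 9, 51 and 48 counts under control siRNA and 1, 9 and 15 counts under INO80 siRNA, or 0.549, 2.50 and 2.48 CPM against 0.0497, 0.373 and 0.619 CPM. Control replicate 1 was below INO80 siRNA replicate 3, so the groups overlapped, and ALPL was lower under INO80 siRNA in 3 of 3 replicate numbers. The means were 0.613 ± 0.375 FPKM and 0.120 ± 0.0954 FPKM (SD, n = 3 each). In edgeR the log2 change was -2.36 with an SE of 0.696 and an adjusted p of 0.140, which did not pass the test. The blocked edgeR fit gave -2.40 with an SE of 0.366 and an adjusted p of 2.03e-05, or 0.189 times the control level. Without both libraries of replicate 1, the log2 fold change was -2.32 and the adjusted p 0.0141 (edgeR, treatment alone). ALPL fell by these fits, at a mean of 22.2 counts per library.
DPP4, the dipeptidyl peptidase targeted by gliptin drugs, was far more abundant, with a mean of 25.0 FPKM. It was at 143, 145 and 111 CPM under control siRNA and at 123, 133 and 98.4 CPM under INO80 siRNA. Each INO80 siRNA library was below the control library of its number, and replicate 3 was the lowest of both groups. By edgeR it differed by -0.17 on the log2 scale, with an SE of 0.133 and an adjusted p of 0.596, and with the block -0.17 with an SE of 0.0399 and an adjusted p of 0.0027 (edgeR).
GGT1, the gamma-glutamyltransferase that begins the breakdown of glutathione, was the most abundant of the 6 brush border members at 39.1 FPKM. Its level was 31.4, 40.6 and 41.1 FPKM under control siRNA and 35.1, 43.7 and 42.9 FPKM under INO80 siRNA, with replicate 1 lowest in both groups. EdgeR gave a log2 difference of 0.10, an SE of 0.105 and an adjusted p of 0.712, and the adjusted p with the block was 0.0568. GGT1 overlaps SNRPD3 on the same strand, and SNRPD3 had a mean of 2978 counts against 3640 for GGT1, so its level is uncertain. The 6 related GGT copies in the table held 0.293% as many counts as GGT1.
MME, which encodes the peptidase neprilysin, was at 2.71, 1.68 and 1.93 FPKM under control siRNA and at 2.49, 1.65 and 1.74 FPKM under INO80 siRNA. Here replicate 1 was the highest in both groups, and the adjusted p was 0.862 (edgeR). ANPEP, the aminopeptidase of the brush border, had 0, 7 and 6 counts under control siRNA and 1, 3 and 2 under INO80 siRNA, and VIL1, which encodes the microvillar actin bundler villin, had at most 2 counts in any library.

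Of the 5 nephron transcription factors, PAX8 and LHX1 were tested, PAX2 stayed under the filter, and HNF4A and WT1 had no count. PAX8 had a mean of 39.5 FPKM and was at 365, 262 and 275 CPM under control siRNA and at 340.2, 256 and 239 CPM under INO80 siRNA. Replicate 1 was the highest of both groups, and PAX8 was lower under INO80 siRNA in 3 of 3 replicate numbers. In edgeR the log2 change was -0.11 with an SE of 0.158 and an adjusted p of 0.788. The blocked edgeR fit gave -0.11 with an SE of 0.0364 and an adjusted p of 0.0254. PAX8 overlaps PAX8-AS1 on the opposite strand, which had a mean of 584 counts against 5912 for PAX8.
LHX1, a homeobox factor of the developing nephron, was at 8.01, 7.16 and 9.39 FPKM under control siRNA and at 7.61, 8.03 and 9.86 FPKM under INO80 siRNA, with an adjusted p of 0.900 (edgeR). PAX2 had 2, 9 and 6 counts under control siRNA and 0, 12 and 10 under INO80 siRNA. The adult tubular factor HNF4A was thus not detectable at this depth, while PAX8 and LHX1 were present in all 6 libraries.

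Of the 4 cadherins, CDH2 and CDH6 reached 1 FPKM. CDH2, which encodes N-cadherin, had a mean of 74.4 FPKM, and CDH1, which encodes the E-cadherin of other tubule segments, had 32 counts in all. CDH2 was at 82.8, 69.8 and 69.9 FPKM under control siRNA and at 85.4, 66.2 and 72.3 FPKM under INO80 siRNA, with a log2 change of 0.00 with an SE of 0.122 and an adjusted p of 0.999 by edgeR.
CDH6, a cadherin known from the developing proximal tubule, was at 239.5, 269 and 304 CPM under control siRNA and at 251, 337 and 390.2 CPM under INO80 siRNA. The difference within a replicate number was smallest in replicate 1, and the groups overlapped. By edgeR it differed by 0.27 on the log2 scale, with an SE of 0.153 and an adjusted p of 0.439. The blocked edgeR fit gave 0.25 with an SE of 0.0422 and an adjusted p of 5.89e-05, and CDH6 rose by that fit, to 1.19 times the control level. CDH16, a kidney-specific cadherin, was at 0.24, 0.62 and 0.66 FPKM under control siRNA and at 0.21, 0.71 and 0.55 FPKM under INO80 siRNA, so both replicate 1 libraries lay below the other 4. Its adjusted p was 0.973 (edgeR).

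Keratins form the intermediate filaments of simple epithelia. KRT19 was the most abundant of all 45 members at 208 FPKM, at percentile 99.6 of all genes with a count. It was at 615, 513 and 440.5 CPM under control siRNA and at 601, 417 and 346 CPM under INO80 siRNA, with replicate 1 highest in both groups. It was lower under INO80 siRNA in 3 of 3 replicate numbers, with a log2 change of -0.20 with an SE of 0.195 and an adjusted p of 0.671 by edgeR and, with the block, -0.23 with an SE of 0.0422 and an adjusted p of 0.000232 (edgeR).
KRT18 moved the other way. It was at 112, 136 and 148 CPM under control siRNA and at 140.5, 149.6 and 163 CPM under INO80 siRNA, higher in 3 of 3 replicate numbers. EdgeR gave a log2 difference of 0.19, an SE of 0.103 and an adjusted p of 0.410, and with the block 0.19 with an SE of 0.0415 and an adjusted p of 0.00102 (edgeR). KRT8, its obligate filament partner, was at 422, 429.8 and 477 CPM under control siRNA and at 463, 433 and 474 CPM under INO80 siRNA, higher in 2 of 3 replicate numbers, with an adjusted p of 0.800 without and 0.380 with the block (edgeR). KRT8 and KRT18 overlap on opposite strands in the table. KRT8 had a mean of 9362 counts against 2978 for KRT18, so the level of KRT18 is uncertain. Pseudogene copies held 2.48% as many counts as KRT8 and 1.02% as many as KRT18. KRT7 had a mean of 7.12 FPKM and an adjusted p of 0.801 (edgeR), and its control replicate 1, at 4.24 FPKM, was the lowest library.

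Of the tubular metabolism genes, those of amino acid metabolism were present and those of gluconeogenesis were at trace level. GATM, the entry enzyme of creatine synthesis, was at 1.82, 1.62 and 1.79 FPKM under control siRNA and at 1.82, 1.86 and 1.80 FPKM under INO80 siRNA. ASS1, the argininosuccinate synthase of arginine production, was at 4.07, 2.70 and 2.13 FPKM under control siRNA and at 4.73, 2.83 and 2.81 FPKM under INO80 siRNA. Their adjusted p were 0.844 and 0.778 (edgeR). PCK1 and FBP1, both of gluconeogenesis, had 1 and 2 counts in all.

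Taking the treatment alone, 0 of the 26 tested members had an adjusted p under 0.05 (edgeR), where 1.75% of all tested genes did, 0.261% higher and 1.49% lower under INO80 siRNA. DESeq2 also called 0, without an adjusted p for 9 of the 26, and limma on log2(FPKM + 0.1) called 0. ALPL was the only member with an unadjusted p under 0.05 in edgeR, where 16.4% of all tested genes had one. In CPM the groups did not overlap for 0 of the 26 members, while they did not overlap for 22.8% of all tested genes. The 16 members with at least 1 FPKM had absolute log2 fold changes of at most 0.29, with standard errors from 0.067 to 0.294. The median log2 fold change was 0.08 over the 26 members and 0.01 over all tested genes.
With the replicate block, 8 of 26 members (30.8%) passed, beside 24.8% of all tested genes. SLC4A4, ABCB1, CDH6 and KRT18 rose and ALPL, DPP4, PAX8 and KRT19 fell, so 4 were higher and 4 lower, where 11.4% of all tested genes were higher and 13.4% lower. The share of members was near that of all genes. SLC4A4, CDH6, KRT18 and DPP4 also passed with the block in DESeq2 and in limma on log2(FPKM + 0.1), and ALPL passed in limma, while DESeq2 gave it no adjusted p. The calls of ABCB1, PAX8 and KRT19 were lost in both of these blocked fits, with adjusted p of 0.245, 0.0933 and 0.0935 in DESeq2 and 0.0925, 0.135 and 0.0509 in limma. ABCB1 also lost its call in the blocked edgeR fit without replicate 1 (adjusted p = 0.273). That fit held 2 libraries per group, which with the block leaves almost nothing to estimate the spread from. In each of the 3 replicate numbers, 9 of the 26 members were higher and 7 lower under INO80 siRNA, or 61.5% in all. Over all tested genes 26.8% were higher and 25.9% lower in this way, or 52.7% in all.

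**Figure D3:**
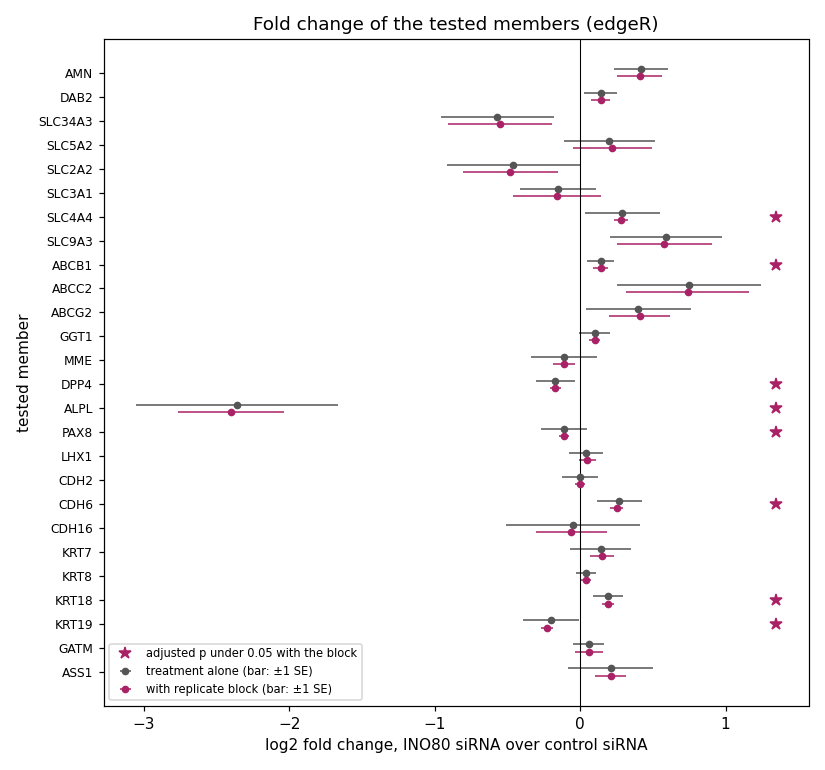
Log2 fold change of INO80 siRNA over control siRNA (horizontal axis) for the 26 tested members (vertical axis), from edgeR with the treatment alone (grey) and with the replicate number as a block (purple). Bars are ±1 standard error and stars mark the 8 members with an adjusted p under 0.05 with the block; ALPL, at -2.36 and -2.40, lies apart from the others.

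The spread of the members followed the replicate number more than the treatment. On log2(CPM + 0.5), the replicate number accounted for a median of 75% of a member's variance between the 6 libraries and the treatment for 15.9%. Over all tested genes the medians were 48.3% and 21.5%. The share of the replicate number was the larger one for 23 of 26 members (88.5%) and for 64.4% of all tested genes, given here as a description since the replicate number has 1 more degree of freedom. AMN, ALPL and SLC9A3 were the 3 exceptions. Both replicate 1 libraries lay above the other 4 for SLC2A2, MME, PAX8, CDH2, KRT19, GATM and ASS1, and below them for SLC4A4, ABCG2, GGT1, CDH6, CDH16 and KRT7. These are 13 of 26 members, where 30.1% of all tested genes were so placed. LUM moved with the replicate number as well, at 327, 176 and 136 CPM under control siRNA and 276, 172 and 126 CPM under INO80 siRNA, and its part in the members' spread was not tested.

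**Figure D4:**
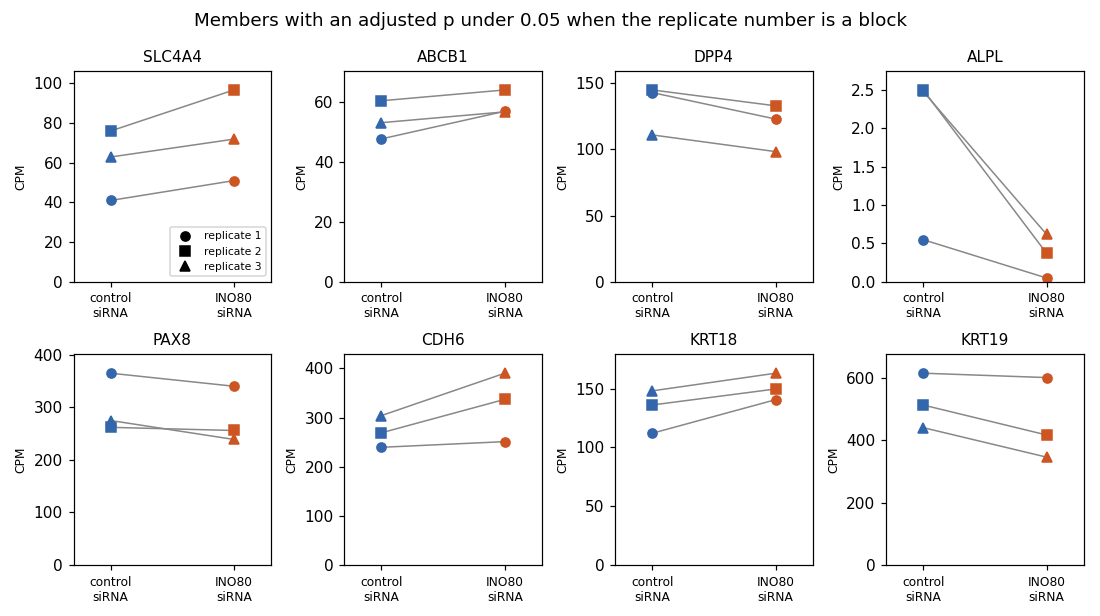
CPM (vertical axes, from 0) of the 8 members that passed the test with the replicate block, under control siRNA (blue) and INO80 siRNA (orange), with 1 line for each replicate number. The 3 lines run in the same direction in each panel, while the libraries of the 2 groups overlap in every panel.

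Other genes of the same functions were read from 8 lists, of which 171 genes had a row and 101 were tested. With the treatment alone 2 of the 101 (1.98%) were lower and 0 were higher. Over all tested genes these shares were 1.49% and 0.261%. With the block 10 were higher and 22 lower (31.7%), beside 11.4% and 13.4% of all tested genes, or 24.8% in all. The counts of single lists below are a description beside these shares, and no list was tested as a set. The 2 genes called with the treatment alone were CLTC and MAF. CLTC, the clathrin heavy chain that coats endocytic vesicles, fell from 915, 936 and 908 CPM to 683, 704 and 663 CPM, a log2 change of -0.43 with an SE of 0.0525 and an adjusted p of 0.0101 by edgeR. The groups did not overlap. MAF, a basic leucine zipper factor, fell from 67.0, 60.8 and 57.9 CPM to 36.3, 35.5 and 39.0 CPM without overlap, a log2 change of -0.75 with an SE of 0.077 and an adjusted p of 0.0063 by edgeR.
Of 13 endocytosis partners, all were tested and had at least 1 FPKM. CLTC was the 1 that was lower, and AP2M1, a subunit of the clathrin adaptor, was the most abundant at 139.9 FPKM (adjusted p = 0.256, edgeR). With the block 2 of the 13 were higher and 5 lower. Of 37 other proximal tubule transporters, 23 were tested and 0 passed without the block, and 3 were higher and 2 lower with it. The most abundant was SLC2A1, a widely expressed glucose transporter, at 115 FPKM (adjusted p = 0.331 without and 8.03e-05 with the block, edgeR). Among 23 other brush border and scaffold genes, 12 were tested, 0 passed without the block, and 1 was higher and 4 were lower with it. EZR, which encodes the microvillar linker ezrin, was at 179 FPKM and CA2, a carbonic anhydrase, at 18.5 FPKM. CA2 had a log2 fold change of 0.55 (adjusted p = 0.332, edgeR), with an adjusted p of 1.07e-07 with the block.
Of 16 other kidney transcription factors, 11 were tested and MAF alone was called without the block. With the block 1 was higher and 1, MAF, was lower. SALL1, a factor of nephron progenitors, was at 12.0 FPKM with an adjusted p of 0.978 (edgeR). Of 30 other genes of tubular metabolism 16 were tested, 0 passed without the block and 2 were lower with it. GPX3, the secreted glutathione peroxidase, was the most abundant at 28.5 FPKM, followed by ASL, the enzyme after ASS1, at 15.7 FPKM. Among 22 genes of epithelial junctions and other keratins, 16 were tested, 0 passed without the block, and 0 were higher and 6 lower with it. The most abundant of them were CLDN1, a tight junction claudin, at 167 FPKM and CTNNB1, the catenin of adherens junctions, at 55.2 FPKM.
The lists of other cell types were small. Of 18 genes of other nephron segments 4 were tested, 0 passed without the block, and with it SCNN1A, a subunit of the epithelial sodium channel, was higher and SYNPO was lower (adjusted p = 0.0301 and 0.00137, edgeR). SYNPO was the most abundant at 5.12 FPKM, followed by PODXL at 0.545 FPKM. Of 12 genes of non-epithelial cells with a row, 6 were tested, 0 passed without the block, and with it COL1A1 and DCN were higher and LUM was lower (adjusted p = 0.000102, 0.00771 and 0.0124, edgeR).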

How the data were processed

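RNA-seq of 6 HK-2 libraries was used, 3 per group. The authors deposited 1 table with raw read counts per gene and FPKM values. The submitters' processing notes name hg19, HISAT2 2.0.1 and HTSeq, while the paper's methods name ELAND and hg38, and the gene coordinates of the table differ from GRCh38. The deposited FPKM values equal the count scaled by exonic length and counted reads in 347430 of 347430 values, to within 0.0051. All genes were fitted in R 4.3.3 with edgeR 4.0.16 (filterByExpr, TMM, quasi-likelihood test), with Benjamini-Hochberg adjustment over 15343 genes. The alternatives, among them DESeq2 1.42.0, limma 3.58.1 and the replicate number as a block, are given in the closing section.

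Deviations from the group means correlated across genes at 0.639, 0.446 and 0.427 for same-numbered libraries of the 2 groups, and at most at 0.165 for others. The numbers were therefore taken as pairs in the blocked fits. No pairing is named in the labels, so it rests on these same libraries. No libraries were duplicates (chi-square per gene at least 7.55). The fits were tested on simulated data, where each recovered at least 99 of 100 genes given a large change. No change as small as those of most called members was simulated, and none at counts as few as those of ALPL.

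The members and lists were chosen with earlier results of these data known. Members were named by role, with ALPL and the most abundant member of each role in full. The other members that passed with the block, and those shown for their spread, were chosen after their values were seen. From each related list, the called genes (at most 4) and the 2 most abundant were named, and the other cell type genes with the block after their values were seen. PECAM1 had no row. Outlying libraries were not tested, since each group held 3. Some genes that these rules name, and a search of promoter sequences, are not reported here.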

Additional observations from a re-analysis of the deposited data

How the results depend on the processing

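The number of members with an adjusted p under 0.05 was 0 with the treatment alone and stayed 0 in each of the 6 edgeR fits that left out a library, with median-ratio scaling, with genes of at least 1 FPKM, in DESeq2 and in limma with pseudocounts of 0.1 and 1. It was 8 with the replicate block in edgeR, which changed the call of no other member, 4 with the block in DESeq2 and 5 with the block in limma. It was 1 without the count filter and 1 without both libraries of replicate 1, ALPL each time (adjusted p = 0.000171 and 0.0141), and 7 without replicate 1 and with the block. All tested genes numbered 268 with the treatment alone, 708 without the filter, 637 in DESeq2, 76 and 80 in limma with pseudocounts of 0.1 and 1, and 528 without both libraries of replicate 1. Leaving out a single library gave between 18 and 146, lowest without control replicate 3. With the block they numbered 3798 in edgeR, 1852 in DESeq2, 2294 in limma and 3978 without replicate 1. The blocked fit without replicate 1 held 2 libraries per group, so its counts of genes rest on very little estimate of spread. DESeq2 gave no adjusted p for 9 of the 26 members with or without the block, ALPL among them. The cause of these differences was not tested. A limit of 0.1 FPKM gave 26 members at or above it in place of 16, a limit of 5 FPKM gave 12, and single libraries left out gave 16 to 17.

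The log2 fold change changed sign in some fits that left out 1 library for SLC5A2 (-0.01 to 0.52), GGT1 (-0.01 to 0.17), MME (-0.34 to 0.13), PAX8 (-0.28 to 0.05), LHX1 (-0.06 to 0.14), CDH16 (-0.41 to 0.28), KRT7 (-0.09 to 0.27) and ASS1 (-0.10 to 0.52). Values that rounded to 0.00, as for CDH2, were taken to have no direction. ALPL ranged from -3.04 to -1.90 over these fits, with adjusted p from 0.0683 to 0.347 (edgeR), and in all libraries limma on log2(FPKM + 1) gave -0.50. Members at trace level, such as LRP2, CUBN and AQP1, are limited by depth and carry no test.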
